A study of Homo sapiens with 12 samples.

Results

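Solute carriers (SLC) are membrane proteins that move nutrients, ions, metabolites and neurotransmitters across the plasma membrane and the membranes of organelles. The genes described here are the 124 of 10976 genes whose symbols have the form SLC, family number, A and member number and whose value was at least 10 in at least 2 of 12 libraries of human cerebral organoids (COs). The glucose transporters *SLC2A1* and *SLC2A3* were set aside. Without these 2 genes, 146 symbols had this form, and 22 of them stayed below the level. Over all genes, 9952 passed the same level rule. The members were thus selected on their scores in the same 12 libraries, and passing the rule is not a result.

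The COs were derived from the human embryonic stem cell line H1 (WT) and from 2 clones of H1, KO#2 and KO#10, in which *c-JUN* was edited with CRISPR-Cas9. They were grown without guidance toward a brain region, and RNA of 3 to 4 pooled COs made 1 library. Each line had 2 libraries at day 12 and 2 at day 24, so that 2 WT libraries stood against 4 labelled KO on each day. KO rests on 2 clones of 1 parent line, and nothing in the labels says that replicates were separate cultures, so that the *p*-values below measure only the spread between these libraries. The deposited values are whole-number scores with the same median, 17, and the same highest value, 5585, in every library. They are normalised values, not counts, and the sequencing depth is unknown. The members took between 0.621% and 0.746% of the summed score of a library, and 87 to 97 of them were at 10 or more in any 1 library.

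The edited gene does not bear out the labels at the RNA level. *JUN* (ENSG00000177606) scored 4 and 8 in the libraries labelled WT at day 12, 19 and 18 in those labelled KO#2 and 14 and 13 in those labelled KO#10. At day 24 it scored 13 and 15 in WT, 39 and 39 in clone KO#2 and 29 and 32 in clone KO#10. *JUN* was thus higher in every library labelled KO than in both labelled WT on each day (log2 fold change 1.25 ± 0.17 (SE), adjusted *p* = 0.01844 at day 24, and 1.33 ± 0.27, adjusted *p* = 0.1315 at day 12). A gene-level score does not show whether the protein is made. The paper reports that western blot found no c-JUN protein in the KO lines and that RT-qPCR found no *c-JUN* mRNA in KO COs. The scores here differ from the latter, and every direction between KO and WT below rests on the labels of these libraries.

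Neural progenitor markers were present in all 12 libraries, with summed scores of 576 to 1963. Cell type markers also differed between the groups at day 24. The summed score of 9 hepatic and yolk sac markers was 7368 and 7186 in WT, but 107, 40, 1302 and 33 in the libraries labelled KO#2 replicate 1 and 2 and KO#10 replicate 1 and 2. The best known of them, *AFP*, scored 5585 and 5585 in WT and 42, 1, 902 and 0 in KO, whereas *ALB* was at 6 and 12 in WT. Of the 8 tested, 4 were called lower, where called means an adjusted *p* under 0.05 in limma and a change of at least 2-fold. Epithelium markers (9 genes) summed to 758 and 1019 in WT and to between 61 and 282 in KO, and 9 of 9 were called lower in KO. Of 8 pluripotency markers, 7 were tested and 6 were called lower, with sums of 478 and 1102 in WT against 55 to 82 in KO. Neuron markers (12 genes) summed to 357 and 189 in WT and to between 445 and 2140 in KO, and 5 of 12 were called higher, while 2 of 8 neural progenitor markers were higher. KO#10 replicate 1 stood apart from the other 3 libraries labelled KO, with a neuron sum of 445 against 1485 to 2140 and a mesenchyme sum of 2908 against 139 to 173. The mesenchyme sums were 2447 and 2074 in WT, and of 8 mesenchyme genes listed 7 were in the table, 6 were tested and 0 were called. Values in bulk RNA cannot tell fewer cells of a type from less RNA per cell. The part of cell composition in the changes of the transporters was not tested, and calls that come or go with KO#10 replicate 1 are given with and without it.

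The members fall into 15 classes by what they carry. The largest were the mitochondrial carriers of the SLC25 family (30 genes), carriers of amino acids and peptides (21) and zinc transporters (14), followed by sugars, polyols and sugar phosphates (9), chloride, bicarbonate and sulfate (9), and vitamins and choline (7). There were 5 genes each for fatty acids, bile acids and organic ions, for monocarboxylates, for iron, copper, magnesium and heme, for glutamate, other neurotransmitters and osmolytes, and for nucleotide sugars and acetyl-CoA. Nucleosides had 3 genes, and phosphate, sodium, proton and calcium exchange, and carriers not assigned to a class had 2 each. Vesicular glutamate transporters are known from neurons, the glutamate carrier *SLC1A3* from radial glia and astrocytes, and the lactate exporter *SLC16A3* from glycolytic cells. The iron exporter *SLC40A1* is known from gut, liver and macrophages.

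Members just inside the level rule were *SLC10A7*, *SLC25A25* and *SLC29A2*, with a second highest score of 10 and with 2, 3 and 4 libraries at 10 or more. Among those just outside were *SLC2A11* and *SLC43A2*, each with 11 in its highest library and 9 in the next. Also below the rule were carriers that load transmitter into vesicles, among them *SLC17A7* (vesicular glutamate transporter 1) at 5 or less and *SLC32A1* (vesicular GABA transporter) at 6 or less in all 12 libraries. All 124 members are protein coding in GENCODE 29, and 33 overlap another gene of the table, 30 of them a gene on the other strand. Whether the counting used the strand is not stated, so that scores of these 33 may hold reads of the neighbour.

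Promoter windows of 4 members called at day 24 show the sequence context of genes that moved in opposite directions. The windows run from 250 bases before to 50 bases after the RefSeq start on GRCh38.p14 and are written 5′ to 3′ on the strand of the gene. Those of *SLC40A1* (chr2:189580737-189581036, minus strand) and *SLC44A1* (chr9:105244401-105244700, plus strand), lower in KO, come first. Those of *SLC29A4* (chr7:5282693-5282992, plus strand) and *SLC7A6* (chr16:68264276-68264575, plus strand), higher in KO, follow. Capitals mark GC boxes (GGGCGG or CCGCCC), overlapping matches included.

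SLC40A1: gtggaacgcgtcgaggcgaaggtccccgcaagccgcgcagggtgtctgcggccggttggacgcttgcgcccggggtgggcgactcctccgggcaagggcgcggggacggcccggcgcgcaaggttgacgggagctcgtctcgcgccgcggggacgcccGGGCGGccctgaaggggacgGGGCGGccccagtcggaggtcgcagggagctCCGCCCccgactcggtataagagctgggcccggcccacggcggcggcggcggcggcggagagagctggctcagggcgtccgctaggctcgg
SLC44A1: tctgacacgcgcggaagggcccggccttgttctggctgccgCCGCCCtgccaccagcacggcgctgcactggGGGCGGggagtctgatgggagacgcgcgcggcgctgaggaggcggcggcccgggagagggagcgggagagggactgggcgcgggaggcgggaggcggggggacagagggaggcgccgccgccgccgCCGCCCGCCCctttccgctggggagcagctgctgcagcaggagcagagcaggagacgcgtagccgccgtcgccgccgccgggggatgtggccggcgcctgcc
SLC29A4: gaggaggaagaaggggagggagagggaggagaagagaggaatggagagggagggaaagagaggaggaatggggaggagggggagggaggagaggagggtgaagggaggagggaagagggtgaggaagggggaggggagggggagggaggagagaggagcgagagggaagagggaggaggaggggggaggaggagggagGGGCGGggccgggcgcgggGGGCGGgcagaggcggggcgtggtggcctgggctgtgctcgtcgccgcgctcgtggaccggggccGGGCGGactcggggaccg
SLC7A6: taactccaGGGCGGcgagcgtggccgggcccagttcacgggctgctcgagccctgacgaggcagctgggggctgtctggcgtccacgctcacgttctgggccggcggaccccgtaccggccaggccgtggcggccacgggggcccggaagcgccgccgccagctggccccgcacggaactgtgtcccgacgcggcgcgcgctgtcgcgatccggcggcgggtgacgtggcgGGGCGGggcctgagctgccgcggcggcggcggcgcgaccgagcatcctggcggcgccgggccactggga

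The 4 windows held 3, 4, 3 and 2 GC boxes, in genes lower and higher in KO alike. A window was found for 102 of 124 members. The GC box was in 84 of these 102 (82.4%), against 48.3% of 27305 genes with a window, and in 9 of 10 members called at day 24 that had one. The AP-1 motif TGANTCA, named for the factor family of c-JUN, was in 9 of 102 members (8.82%) against 9.37% of all genes, and in 0 of the 10. The letters of the CRE motif TGACGTCA were in 5 members (4.9%, against 2.25%), also in 0 of the 10, and those of the E-box CACGTG in 22 (21.6%, against 8.77%), 1 of them among the 10. The 27305 genes were not limited to protein-coding genes or to genes passing the level rule, as the members are. The shares were not compared with those of genes so selected, and no trait of the members is read from them. Both strands were searched, and a match or its absence in these windows says nothing on binding.

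Between the COs labelled KO and WT at day 24, 12 members were called. The 5 higher were *SLC8A1*, *SLC1A4*, *SLC22A23*, *SLC7A6* and *SLC29A4*. The 7 lower were *SLC40A1*, *SLC7A2*, *SLC44A1*, *SLC12A4*, *SLC16A3*, *SLC29A1* and *SLC7A3*. They were spread over 8 of the 15 classes, and in 2 classes, amino acids and nucleosides, members moved in both directions. The share of members called was close to that of all genes. Of 113 members tested 10.6% were called (all genes tested, 8.01%), with 4.42% higher in KO (all genes, 4.22%) and 6.19% lower (all genes, 3.79%). The median log2 fold change was -0.02 over the members and 0.01 over all genes. The remaining 11 members did not reach 10 in 2 libraries of that day. Of the 113, 14 reached 10 in KO libraries alone and 10 in WT libraries alone, and 3 members of each kind are among those called. These are *SLC1A4*, *SLC22A23* and *SLC7A6* (KO alone) and *SLC40A1*, *SLC7A2* and *SLC12A4* (WT alone). They were tested only because they were high in that group, so that their calls are not independent of the filter. The count moved strongly with single libraries. The share of all genes called in those fits is not given here, so that these counts are not read as a result about the members. Without KO#10 replicate 1 there were 24 calls, all 12 among them, whereas leaving out KO#2 replicate 1 left 4, leaving out KO#10 replicate 2 left 1, and leaving out either WT library or KO#2 replicate 2 left 0. The other 12 of the 24 were *SLC16A14*, *SLC17A6*, *SLC1A3*, *SLC39A6*, *SLC44A5* and *SLC4A8*, higher in KO, and *SLC25A13*, *SLC25A26*, *SLC39A4*, *SLC39A14*, *SLC50A1* and *SLC7A7*, lower. Their values without KO#10 replicate 1 stand with each gene below. Among them, *SLC16A14* and *SLC17A6* reached 10 at day 24 in KO libraries alone, and *SLC25A26*, *SLC39A4* and *SLC7A7* in WT libraries alone. The calls of these genes are likewise not independent of the filter. That library was singled out after its values were seen, and leaving out any other KO library lowered the count. Under other settings of the fit *SLC8A1* kept its call in 6 of 11, and *SLC1A4* and *SLC7A3* each in 7 of 10. The remaining called members kept theirs in all settings or all but 1.

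**Figure D1:**
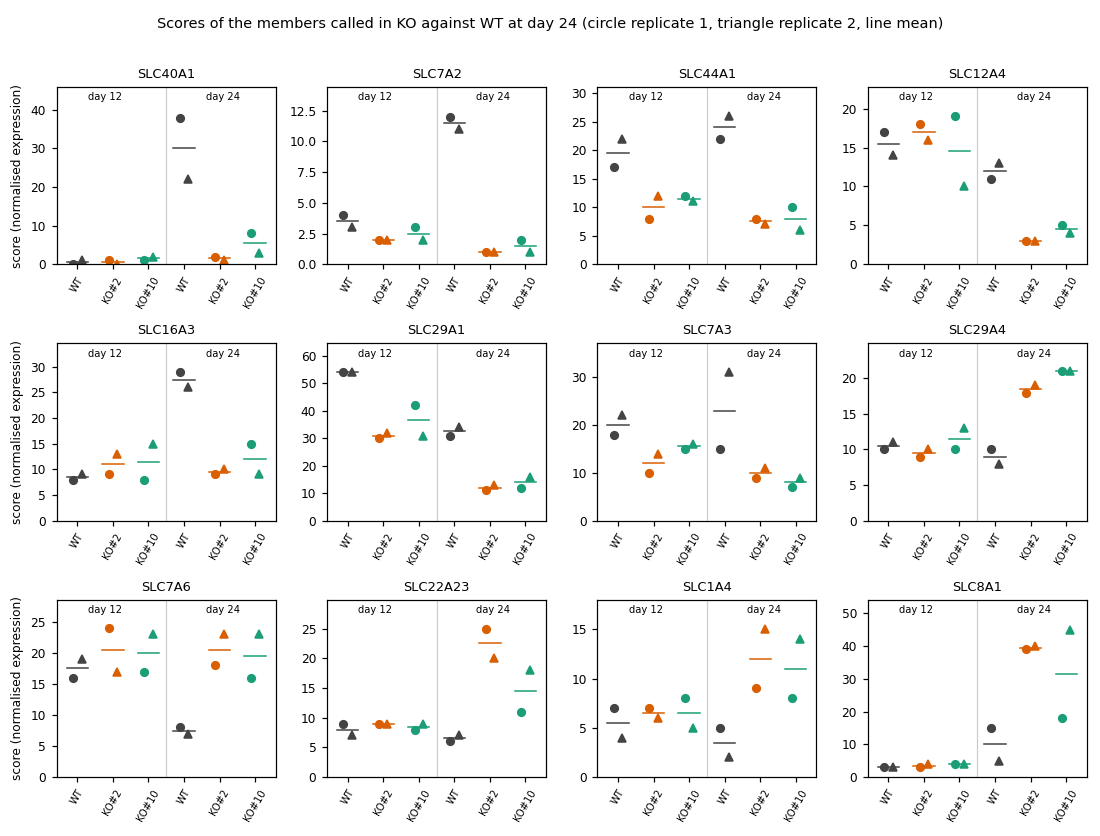
Scores (normalised expression, no unit) of the 12 members called between KO and WT at day 24, in all 12 libraries. Circles are replicate 1, triangles replicate 2 and lines the mean of 2. At day 24 the 4 libraries labelled KO lie on one side of both WT libraries for each gene, below in the first 7 panels and above in the last 5.

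Amino acid carriers held 4 of the 12 calls, and 18 of 21 genes of the class were tested. *SLC7A2* (ENSG00000003989, chromosome 8, 17497088 to 17570573, in coordinates of GRCh38), a carrier of arginine, lysine and ornithine, scored 12 and 11 in WT at day 24, 1 and 1 in clone KO#2 and 2 and 1 in clone KO#10. It was low in all KO libraries, and the log2 fold change was -2.50 ± 0.57 (SE, adjusted *p* = 0.03586). *SLC7A3* (ENSG00000165349, chromosome X, 70925579 to 70931125), of the same cationic family, scored 15 and 31 in WT, 9 and 11 in clone KO#2 and 7 and 9 in clone KO#10 (-1.19 ± 0.30, adjusted *p* = 0.04326). Here the WT libraries lay far apart, and the lower one was still above every KO library. *SLC7A1*, another cationic carrier of the family, did not pass the test (0.24 ± 0.34), with 9 and 10 in WT and 8 to 17 in KO.

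Higher in KO were an exchanger and a neutral amino acid carrier. *SLC7A6* (ENSG00000103064, chromosome 16, 68264516 to 68301823), which trades cationic for neutral amino acids together with the heavy chain SLC3A2, scored 8 and 7 in WT, 18 and 23 in clone KO#2 and 16 and 23 in clone KO#10 (log2 fold change 1.29 ± 0.19, adjusted *p* = 0.01958). It overlaps *SLC7A6OS* on the other strand. *SLC1A4* (ENSG00000115902, chromosome 2, 64988477 to 65023865), a carrier of alanine, serine and cysteine, scored 5 and 2 in WT, 9 and 15 in clone KO#2 and 8 and 14 in clone KO#10 (1.52 ± 0.38, adjusted *p* = 0.04373). *SLC3A2* itself was not called (-0.38 ± 0.16, adjusted *p* = 0.1356), with 80 and 107 in WT and 62 to 75 in KO.

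The paralogue of *SLC7A6*, *SLC7A7*, went the other way without passing the test. It scored 10 and 15 in WT, 1 and 0 in clone KO#2 and 3 and 2 in clone KO#10 (-2.58 ± 0.73, adjusted *p* = 0.05511), and was called without KO#10 replicate 1 (-2.87, adjusted *p* = 0.01508). *SLC38A2*, a sodium-coupled carrier of small neutral amino acids, scored 92 and 84 in WT and between 70 and 124 in KO (0.07 ± 0.22), so that the groups overlapped. Over the class the median log2 fold change was -0.03, with 9 members above 0 and 9 below.

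Both nucleoside carriers tested were called, in opposite directions. *SLC29A1* (ENSG00000112759, chromosome 6, 44219553 to 44234142), the equilibrative carrier through which most cells take up nucleosides, scored 31 and 34 in WT, 11 and 13 in clone KO#2 and 12 and 16 in clone KO#10. Its log2 fold change was -1.27 ± 0.17 (adjusted *p* = 0.01844). *SLC29A4* (ENSG00000164638, chromosome 7, 5274369 to 5306912), of the same family, known to carry monoamines and adenosine, scored 10 and 8 in WT, 18 and 19 in clone KO#2 and 21 and 21 in clone KO#10 (1.06 ± 0.15, adjusted *p* = 0.01958). Replicates of each clone lay within 4 score units of each other for both genes. The file's interval of *SLC29A4* overlaps *TNRC18* on the other strand. *SLC29A2* was not tested at this day, with 5 to 10 in KO and 7 and 6 in WT.

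Iron export gave the largest change of the 12, in a gene that entered the test through its WT libraries alone. *SLC40A1* (ENSG00000138449, chromosome 2, 189560590 to 189583758) encodes ferroportin, the known exporter of iron from cells. It scored 38 and 22 in WT at day 24, 2 and 1 in clone KO#2 and 8 and 3 in clone KO#10, a log2 fold change of -2.97 ± 0.59 (adjusted *p* = 0.02774). The highest KO value, 8, was in KO#10 replicate 1. This library also had the highest hepatic and yolk sac, epithelium and mesenchyme sums of those labelled KO at day 24 (1302, 282 and 2908), and a link to these sums was not tested. Without KO#10 replicate 1 the log2 fold change was -3.38 ± 0.38 (adjusted *p* = 0.005142). The other metal carriers of the class moved less. *SLC11A2*, which brings iron into the cytosol, scored 26 and 26 in WT and 23 to 36 in KO (0.21 ± 0.19), and *SLC41A3*, of a magnesium family, passed the adjusted *p* at less than 2-fold, with 19 and 16 in WT and 24 to 28 in KO (0.59).

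Among zinc transporters, 0 of 14 were called, although 1 stood out in its values. *SLC39A4*, known for zinc uptake in the gut, scored 10 and 12 in WT at day 24 and was listed at 0 in all 4 libraries labelled KO. It did not pass the test with all libraries (adjusted *p* = 0.09519) and did so without KO#10 replicate 1 (adjusted *p* = 0.005907). That library was itself at 0, and the log2 fold change of *SLC39A4* was -3.58 in both fits. Only the standard error of this gene was smaller without that library. Both of its WT replicates were high, while at day 12 it was at 0 or 1 in every library. *SLC39A6* scored 39 and 25 in WT and 50 to 71 in KO (a log2 change of 0.98 ± 0.22, adjusted *p* = 0.03412), and *SLC39A14* scored 19 and 24 in WT and 8 to 13 in KO (-0.95, adjusted *p* = 0.03412), both just under 2-fold. Without KO#10 replicate 1 both were called (1.09 and -1.04, adjusted *p* = 0.01407 and 0.01521). *SLC30A9* scored 112 and 90 in WT and 64 to 77 in KO without passing (-0.46 ± 0.15, adjusted *p* = 0.07166). The class median of -0.37 was the lowest of the 15, with 9 of 14 members below 0, and its difference from other classes was not tested.

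**Figure D2:**
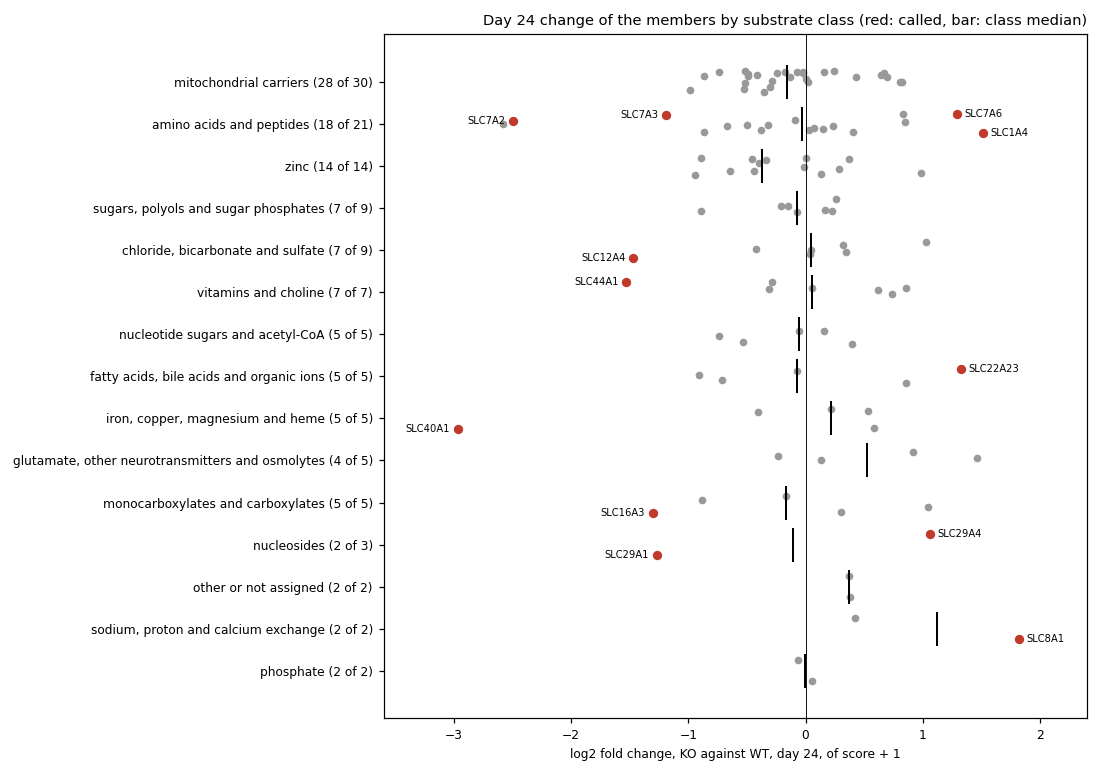
Log2 fold change of score + 1, KO against WT at day 24, for the members tested in each of 15 substrate classes (tested of all in brackets). Points are members, red ones are called and named, and black bars are class medians, which lie between -0.37 and 1.12. *SLC39A4*, listed at 0 in every KO library, is counted in its class and its median but not drawn.

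Of 5 monocarboxylate carriers tested, 1 was called. *SLC16A3* (ENSG00000141526, chromosome 17, 82217934 to 82261129), known as the lactate exporter of glycolytic cells, scored 29 and 26 in WT at day 24, 9 and 10 in clone KO#2 and 15 and 9 in clone KO#10 (log2 fold change -1.31 ± 0.22, adjusted *p* = 0.02179). It overlaps *CSNK1D* on the other strand. *SLC16A1*, the more widely used lactate carrier, scored 78 and 98 in WT and 43 to 51 in KO (-0.89 ± 0.15, adjusted *p* = 0.02065), a change under 2-fold with no overlap. Against these, *SLC16A14*, whose substrate is little known, scored 7 and 4 in WT and 9 to 15 in KO without passing (1.04, adjusted *p* = 0.05159), and was called without KO#10 replicate 1 (1.17, adjusted *p* = 0.02333). The membrane partners of these carriers, which belong to the list of other transport genes, differed. *BSG* scored 114 and 134 in WT and 114 to 128 in KO (-0.04 ± 0.13). *EMB* was called lower, with 27 and 20 in WT and 8 to 11 in KO (-1.25 ± 0.20, adjusted *p* = 0.02065).

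Choline and chloride carriers each had 1 call. *SLC44A1* (ENSG00000070214, chromosome 9, 105244622 to 105439171), a choline carrier, scored 22 and 26 in WT, 8 and 7 in clone KO#2 and 10 and 6 in clone KO#10 (-1.53 ± 0.22, adjusted *p* = 0.01958). Its family members differed: *SLC44A2* scored 48 and 47 in WT and 35 to 48 in KO (-0.29 ± 0.16), and *SLC44A5* scored 10 and 9 in WT and 13 to 21 in KO, passing the adjusted *p* under 2-fold (0.85, adjusted *p* = 0.04147) and just reaching it without KO#10 replicate 1 (1.00, adjusted *p* = 0.006533). *SLC12A4* (ENSG00000124067, chromosome 16, 67943474 to 67969601), a cotransporter of potassium and chloride, scored 11 and 13 in WT, 3 and 3 in clone KO#2 and 5 and 4 in clone KO#10 (-1.47 ± 0.31, adjusted *p* = 0.03151). It overlaps *LCAT* on the same strand. *SLC12A2*, which brings chloride into cells, scored 12 and 11 in WT and 13 to 17 in KO (0.35, adjusted *p* = 0.1914). *SLC4A7*, a sodium-coupled carrier of bicarbonate with the highest mean of the chloride and bicarbonate class, scored 58 and 67 in WT and 43 to 81 in KO (0.05 ± 0.25). *SLC4A8*, the sodium-driven exchanger of chloride and bicarbonate, scored 10 and 6 in WT and 10 to 21 in KO without passing (1.02 ± 0.33, adjusted *p* = 0.07226). The KO value of 10 was in KO#10 replicate 1, and without it the gene was called (1.26, adjusted *p* = 0.01198).

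The calcium exchanger and an organic ion carrier were called higher in KO. *SLC8A1* (ENSG00000183023, chromosome 2, 40097270 to 40611053), the sodium and calcium exchanger, scored 15 and 5 in WT, 39 and 40 in clone KO#2 and 18 and 45 in clone KO#10. The log2 fold change was 1.82 ± 0.48 (adjusted *p* = 0.04711), and the gap between the groups was small, 15 in the higher WT library and 18 in KO#10 replicate 1. That library also had the lowest neuron sum among those labelled KO, 445, and a link to this sum was not tested. Without KO#10 replicate 1 the log2 fold change was 2.11 ± 0.40 (adjusted *p* = 0.01515). *SLC22A23* (ENSG00000137266, chromosome 6, 3268962 to 3457050), an organic ion carrier with no settled substrate, scored 6 and 7 in WT, 25 and 20 in clone KO#2 and 11 and 18 in clone KO#10 (1.33 ± 0.30, adjusted *p* = 0.03488), and overlaps *PSMG4* on the other strand. *SLC22A17* of the same family scored 18 and 16 in WT and 29 to 35 in KO, passing the adjusted *p* under 2-fold (0.86 ± 0.14, adjusted *p* = 0.02065).

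Carriers of glutamate, creatine and taurine had 0 calls between KO and WT at day 24 over 4 members tested. *SLC1A3*, the glutamate carrier of radial glia, scored 11 and 4 in WT, 26 and 31 in clone KO#2 and 10 and 21 in clone KO#10 (log2 fold change 1.47 ± 0.50, adjusted *p* = 0.08036). KO#10 replicate 1 alone fell within the WT range, and without it the gene was called (1.79 ± 0.39, adjusted *p* = 0.0219). *SLC17A6*, the vesicular glutamate transporter of diencephalic and other subcortical neurons, scored 5 and 5 in WT, 12 and 13 in clone KO#2 and 5 and 14 in clone KO#10 (0.92 ± 0.39, adjusted *p* = 0.1349), and was likewise called without that library (1.22, adjusted *p* = 0.006508). *SLC6A8*, which takes up creatine, scored 42 and 28 in WT and 29 to 45 in KO (0.13 ± 0.23).

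In the 28 mitochondrial carriers tested there were 0 calls, by limma, and their log2 fold changes ran from -0.99 to 0.83. *SLC25A3*, the phosphate carrier of mitochondria, scored 318 and 302 in WT and 279 to 338 in KO (-0.02 ± 0.13, 95% interval -0.32 to 0.27), so that the groups overlapped. *SLC25A23*, which exchanges ATP for phosphate, passed the adjusted *p* under 2-fold, with 22 and 17 in WT and 29 to 34 in KO (0.69 ± 0.15, adjusted *p* = 0.03151). So did *SLC25A38*, needed for heme synthesis, with 22 and 24 in WT and 14 to 17 in KO (-0.52, adjusted *p* = 0.04622). *SLC25A26*, which carries S-adenosylmethionine, had the largest change of the class, with 14 and 11 in WT and 4 to 9 in KO (-0.99 ± 0.32, adjusted *p* = 0.07233). *SLC25A13*, which exchanges aspartate for glutamate, scored 36 and 34 in WT and 14 to 28 in KO (-0.86 ± 0.27, adjusted *p* = 0.06934). The highest KO value of both, 9 and 28, was in KO#10 replicate 1. Without that library both were called lower, *SLC25A26* at -1.18 (adjusted *p* = 0.01593) and *SLC25A13* at -1.05 (adjusted *p* = 0.01449). Over the class 18 of 28 were below 0 and the median was -0.16.

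The 7 classes without a call also included sugars, nucleotide sugars, phosphate and the 2 carriers not assigned. *SLC50A1*, a sugar carrier, scored 19 and 21 in WT and 7 to 16 in KO (-0.89 ± 0.29, adjusted *p* = 0.07456). The 16 was in KO#10 replicate 1, and without it *SLC50A1* was called lower (-1.09 ± 0.20, adjusted *p* = 0.01492). *SLC37A3*, with the highest mean of the sugar class, scored 37 and 30 in WT and 26 to 32 in KO (-0.21 ± 0.15). *SLC33A1*, which brings acetyl-CoA into the endoplasmic reticulum, scored 10 and 11 in WT and 5 to 8 in KO (-0.73 ± 0.26, adjusted *p* = 0.08864). *SLC35A5* of the nucleotide sugar family scored 22 and 27 in WT and 25 to 33 in KO (0.16 ± 0.16). The phosphate carriers *SLC20A1* and *SLC20A2* had log2 fold changes of 0.05 (95% interval -0.26 to 0.37) and -0.06 (-0.38 to 0.26), and *SLC66A1* and *SLC66A2* of 0.38 and 0.37.

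Counted without a size limit, 12 members were higher and 10 lower at an adjusted *p* under 0.05, which is 10.6% and 8.85% of those tested (all genes, 8.16% and 6.48%). At day 24, 24 members lay higher in every KO library than in both WT libraries (21.2%, all genes 22.2%), and 36 lay lower (31.9%, all genes 21.8%).

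**Figure D3:**
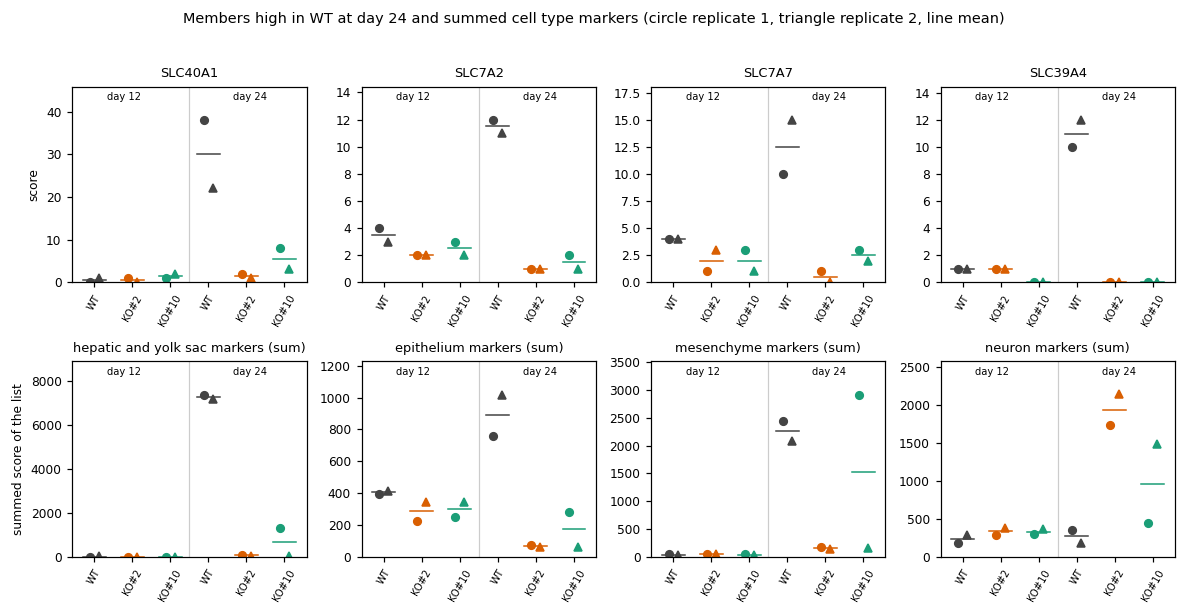
Scores of 4 members that were high in WT at day 24 (top) and summed scores of 4 marker lists (bottom) in all 12 libraries. Circles are replicate 1, triangles replicate 2 and lines the mean of 2. *SLC40A1*, *SLC7A2*, *SLC7A7* and *SLC39A4* are high in the WT libraries of day 24, as is the hepatic and yolk sac sum (7368 and 7186), and the KO#10 replicate 1 library of day 24 has 1302 in that sum and 2908 in the mesenchyme sum. A link between the genes and the sums was not tested.

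At day 12, by contrast, 0 of 99 members tested were called by limma (all genes, 0.0225% higher and 0.0675% lower, 0.09% in all), and the lowest adjusted *p* of a member was 0.189. At an unadjusted *p* under 0.05 there were 16 of these members, and 980 of all 8885 genes tested. Leaving out any library of the day also gave 0 calls. In 20 members (20.2%) every library labelled KO lay below both WT libraries, against 8.34% of all genes, and in 4 (4.04%) every one lay above, against 8.23%. Of 99 log2 fold changes 62 were below 0, with a median of -0.08. The fit did not model the pairing of same-numbered libraries, and with a replicate block 0 members were called as well.

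The 5 members with the smallest *p* at day 12 all had lower means in KO. *SLC29A1* scored 54 and 54 in WT, 30 and 32 in clone KO#2 and 42 and 31 in clone KO#10 (log2 fold change -0.68 ± 0.17, adjusted *p* = 0.189). *SLC44A1* scored 17 and 22 in WT and 8 to 12 in KO (-0.81 ± 0.20, adjusted *p* = 0.2001), so that both genes showed at day 12 the order of groups they had at day 24. *SLC7A1*, a cationic amino acid carrier, scored 21 and 14 in WT and 9 to 12 in KO (-0.67 ± 0.20). *SLC50A1* scored 25 and 18 in WT and 11 to 15 in KO (-0.60 ± 0.19). *SLC25A5*, which exchanges ADP and ATP across the inner mitochondrial membrane, scored 142 and 166 in WT and 102 to 121 in KO (-0.44 ± 0.15). Of the members called at day 24, *SLC29A4* (10 and 11 in WT, 9 to 13 in KO), *SLC7A6* (16 and 19 in WT, 17 to 24 in KO) and *SLC12A4* (17 and 14 in WT, 10 to 19 in KO) overlapped between the groups at day 12.

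From day 12 to day 24, members changed in both genotypes. In WT 8 were called higher and 11 lower (6.45% and 8.87% of 124, all genes 7.17% and 7.88%). In KO 6 were higher and 7 lower (4.84% and 5.65%, all genes 5.88% and 5.59%). The WT and KO day changes compare different libraries, but the spread of each gene was estimated over all 12 in 1 fit. Their calls are therefore not independent. Of the genes called higher, 4 were called in both genotypes, *SLC17A6*, *SLC25A12*, *SLC25A20* and *SLC8A1*, which is 50.0% of the WT calls and 66.7% of the KO calls. Of those called lower, 3 were shared, *SLC5A3*, *SLC25A29* and *SLC25A37* (27.3% and 42.9%), and 0 were called in opposite directions. The same overlap over all genes was not computed, so that these shares are not read as particular to the members. The WT count ranged from 10 to 19 with 1 library left out (10 without WT day 12 replicate 1, 12 without WT day 24 replicate 2). Without KO#10 day 24 replicate 1, 14 members were called in KO, 10 of the 13 among them, a count given without the share of all genes. *SLC25A20* (0.99, adjusted *p* = 0.003132) and *SLC25A37* (-0.94, adjusted *p* = 0.0009673) then fell just under 2-fold, and *SLC25A12* no longer reached the level to be tested. Those added included *SLC22A23* (1.16), *SLC39A6* (1.01) and *SLC7A8* (-1.23). Some members passed the level rule through 1 group alone, with 6 at 10 or more in WT libraries of day 24 only, 9 in KO libraries of day 24 only and 2 in KO libraries of day 12 only. Among the day changes called, this holds for *SLC40A1* and *SLC7A2* (WT day 24), *SLC17A6* and *SLC25A12* (KO day 24) and *SLC15A3* (KO day 12), which were tested only because they were high in that group. It also holds for *SLC22A23* (KO day 24), added without KO#10 day 24 replicate 1.

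**Figure D4:**
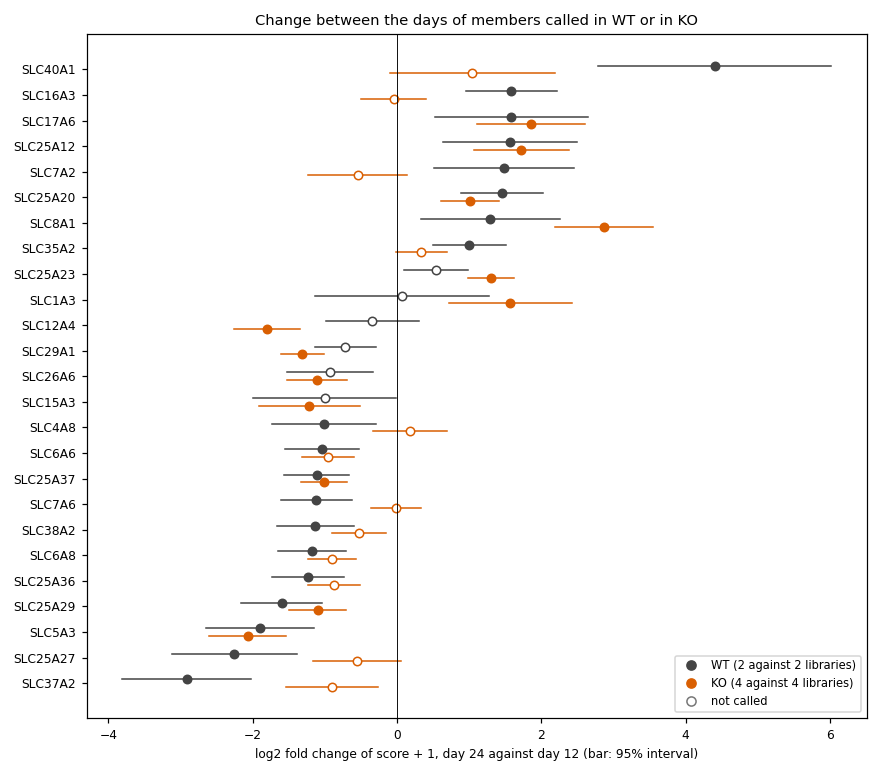
Log2 fold change of score + 1 from day 12 to day 24 for the 25 members called in WT or in KO. Grey is WT (2 against 2 libraries), orange is KO (4 against 4), filled points are called, open points are not, and bars are 95% intervals from limma. *SLC40A1* has the highest value in WT (4.40) and *SLC8A1* in KO (2.87).

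Among the shared increases were a vesicular carrier and an ion exchanger. *SLC17A6* scored 1 and 1 in WT at day 12 and 5 and 5 at day 24 (log2 fold change 1.58 ± 0.49, adjusted *p* = 0.02911). In KO it went from between 1 and 3 to 12 and 13 in clone KO#2 and 5 and 14 in clone KO#10 (1.85 ± 0.34, adjusted *p* = 0.001606). *SLC8A1* was at 3 and 3 in WT at day 12 against 15 and 5 at day 24 (1.29 ± 0.44, adjusted *p* = 0.04515), and at 3 or 4 in KO against 18 to 45 (2.87 ± 0.31, adjusted *p* = 6.512e-05). The WT increase was called in 2 of 12 fits with 1 library left out and the KO increase in 12 of 12.

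*SLC25A12*, which exchanges aspartate for glutamate in mitochondria of brain and muscle, scored 1 and 1 in WT at day 12 and 6 and 4 at day 24 (1.56 ± 0.43, adjusted *p* = 0.01765), and 1 to 3 in KO against 7 to 12 (1.72 ± 0.30, adjusted *p* = 0.001135). *SLC25A20*, which carries acylcarnitines to the site of fatty acid oxidation, scored 5 and 4 in WT against 15 and 13 (1.45 ± 0.26, adjusted *p* = 0.002784), and 3 to 5 in KO against 8 to 11 (1.01 ± 0.19, adjusted *p* = 0.001567). In both genes the days did not overlap in either genotype.

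The shared decreases were led by the carrier of *myo*-inositol, an osmolyte and lipid precursor. *SLC5A3* scored 48 and 36 in WT at day 12 and 12 and 9 at day 24 (-1.90 ± 0.34, adjusted *p* = 0.002666), and 39 to 74 in KO against 7 to 15 (-2.07 ± 0.24, adjusted *p* = 0.0001031). It overlaps *MRPS6* on the same strand. *SLC25A29*, a mitochondrial carrier of basic amino acids, scored 87 and 67 in WT against 30 and 20 (-1.60 ± 0.26), and 72 to 111 in KO against 33 to 47 (-1.10 ± 0.18). *SLC25A37*, mitoferrin, which brings iron into mitochondria, scored 40 and 30 in WT against 16 and 15 (-1.11 ± 0.21), and 30 to 42 in KO against 15 to 21 (-1.01 ± 0.15). The days were again without overlap in both genotypes.

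Several day changes were called in WT and not in KO, which does not by itself show a difference. *SLC40A1* was at 0 and 1 in WT at day 12 and 38 and 22 at day 24 (4.40 ± 0.75, adjusted *p* = 0.001858), and at 0 to 2 in KO against 1 to 8 (1.04 ± 0.53, adjusted *p* = 0.1352). *SLC7A2* went from 4 and 3 to 12 and 11 in WT (1.48 ± 0.45, adjusted *p* = 0.02712), against 2 or 3 and then 1 or 2 in KO (-0.54 ± 0.32). *SLC35A2*, which brings UDP-galactose into the Golgi, went from 6 and 7 to 14 and 14 in WT (1.00 ± 0.23), against 6 to 8 and then 8 to 12 in KO (0.34 ± 0.16). The tests of the difference between genotypes gave adjusted *p* = 0.07576 for *SLC40A1*, 0.07491 for *SLC7A2* and 0.2013 for *SLC35A2*. Without KO#10 day 24 replicate 1 this difference was called for *SLC40A1* (-3.77 ± 0.75, adjusted *p* = 0.009703) and *SLC7A2* (-2.17 ± 0.43, adjusted *p* = 0.009734), and did not pass for *SLC35A2* (adjusted *p* = 0.07522).

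The 2 largest decreases in WT were of a sugar phosphate carrier and a mitochondrial carrier. *SLC37A2*, a sugar phosphate antiporter of the endoplasmic reticulum, scored 18 and 11 in WT at day 12 and 1 and 1 at day 24 (-2.92 ± 0.41, adjusted *p* = 0.0007763), and 12 to 22 in KO against 5 to 14 (-0.91 ± 0.29). *SLC25A27*, an uncoupling protein known from brain, scored 13 and 12 in WT against 3 and 1 (-2.25 ± 0.40, adjusted *p* = 0.002282), and 7 to 14 in KO against 5 to 11 (-0.55 ± 0.28). The difference between genotypes did not pass the test for either gene (2.01 ± 0.50, adjusted *p* = 0.06563, and 1.70 ± 0.49, adjusted *p* = 0.08436). Without KO#10 day 24 replicate 1 it was called for *SLC37A2* (2.19 ± 0.48, adjusted *p* = 0.01433) and not for *SLC25A27* (adjusted *p* = 0.05062).

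Uptake carriers for creatine, taurine and neutral amino acids were lower at day 24 in WT and lay below 0 in KO as well. *SLC6A8* scored 79 and 79 in WT against 42 and 28 (-1.18 ± 0.22, adjusted *p* = 0.002955), and 69 to 76 in KO against 29 to 45, a change of just under 2-fold (-0.90 ± 0.15, adjusted *p* = 0.0009694). *SLC6A6*, the taurine carrier, scored 32 and 22 in WT against 14 and 11 (-1.04 ± 0.23), and 18 to 24 in KO against 8 to 12 (-0.96 ± 0.17). *SLC38A2* scored 212 and 178 in WT against 92 and 84 (-1.13 ± 0.24), and 114 to 166 in KO against 70 to 124 (-0.52 ± 0.17). *SLC25A36*, a mitochondrial carrier of pyrimidine nucleotides, scored 243 and 200 in WT against 81 and 107 (-1.24 ± 0.23), and 158 to 250 in KO against 100 to 136 (-0.87 ± 0.16). All 4 passed the adjusted *p* in both genotypes. The remaining decreases called in WT were of *SLC7A6* (-1.12 ± 0.23) and *SLC4A8* (-1.02, adjusted *p* = 0.03843), which scored 20 and 14 in WT against 10 and 6.

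In KO the day changes called outside the shared set began with decreases of anion, nucleoside and peptide carriers. *SLC12A4* went from 10 to 19 at day 12 to 3 to 5 at day 24 (-1.80 ± 0.21, adjusted *p* = 9.558e-05), and *SLC29A1* from 30 to 42 to 11 to 16 (-1.31 ± 0.14, adjusted *p* = 5.034e-05). *SLC26A6*, an anion exchanger, went from 19 to 24 to 6 to 12 (-1.10 ± 0.19), and in WT from 30 and 22 to 13 and 13 (-0.93 ± 0.27), passing the adjusted *p* in both. *SLC15A3*, a carrier of histidine and small peptides in lysosomes, went from 5 to 16 to 3 to 6 (-1.22 ± 0.32), with overlap between the days. The increases were of *SLC1A3*, from 4 to 9 at day 12 to 10 to 31 at day 24 (1.57 ± 0.39, adjusted *p* = 0.00845), and of *SLC25A23*, from 10 to 16 to 29 to 34 (1.31 ± 0.14, adjusted *p* = 7.004e-05). In WT, *SLC1A3* scored 4 and 10 against 11 and 4 (0.06 ± 0.56).

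The interaction of genotype and day, which asks whether the gap between KO and WT changed between the days, called 2 members of 124. Higher were 0.806% (all genes, 0.452%) and lower 0.806% (all genes, 0.854%). *SLC16A3* went from 8 and 9 to 29 and 26 in WT, while in KO it was at 8 to 15 on day 12 and 9 to 15 on day 24, an interaction of -1.63 ± 0.36 on the log2 scale (adjusted *p* = 0.0479). *SLC29A4* was at 10 and 11, then 10 and 8 in WT, and went from 9 to 13 to 18 to 21 in KO (1.07 ± 0.24, adjusted *p* = 0.04953). Both lie close to the threshold, and the interaction shares its libraries with the day-wise comparisons. Without KO#10 day 24 replicate 1 there were 12 calls, these 2 among them, again without a share of all genes to set beside the count. The others were *SLC22A23*, *SLC37A2*, *SLC39A6*, *SLC4A8*, *SLC7A6* and *SLC8A1* (1.11 to 2.19) and *SLC12A4*, *SLC39A4*, *SLC40A1* and *SLC7A2* (-3.77 to -1.58). Of these, *SLC22A23* passed the level rule through KO libraries of day 24 alone. *SLC39A4*, *SLC40A1* and *SLC7A2* passed it through WT libraries of day 24 alone. By contrast, leaving out WT day 24 replicate 1 gave 3, KO#10 day 12 replicate 2 gave 2, and each of the other libraries gave 0.

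Other transport genes gave a reference of the same subject. The list held 63 genes outside the rule, such as ion pumps, ABC transporters, aquaporins and SLC relatives with other symbols, and 49 were in the table. At day 24, 3 of 45 tested were called higher in KO and 7 lower, with a median log2 fold change of -0.08. These 10 are 22.2% of the 45 tested, against 10.6% of the members tested and 8.01% of all genes tested. The list was drawn up with earlier results of these data known, so that nothing is read from its share. The water channel *AQP1* scored 33 and 21 in WT and 1 to 12 in KO (-2.95 ± 0.78, adjusted *p* = 0.04762), and *MPC2*, a subunit of the mitochondrial pyruvate carrier, scored 50 and 42 in WT and 13 to 17 in KO (-1.47 ± 0.16, adjusted *p* = 0.01478). Also lower were *SLC35F2* (-2.69), *SLC9A3R1* (-2.10) and *SLC35D2* (-1.73), and higher were *ABCA2*, a lipid transporter (1.22), *SLC35E2B* (1.18) and the phosphate exporter *XPR1*, with 30 and 30 in WT and 58 to 82 in KO (1.16 ± 0.16, adjusted *p* = 0.0195). At day 12, 0 of 32 were called.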

How the data were processed

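Scores per gene in 12 libraries of COs were analysed. The authors deposited 1 table per library with whole-number scores that had been brought to the same distribution before deposit (269 to 271 distinct values in a library, summed scores of 473637 to 483149). They are therefore not counts, the depth is unknown, and no counting interval is given. Libraries were made from total RNA. The submitters' processing notes list bcl2fastq, Bowtie2 and RSEM, and the mouse build mm10. The latter cannot hold for these tables, since 10976 of 10976 gene identifiers are in GENCODE 29 and 10975 intervals overlap that release on GRCh38. Versions, the normalisation and the length scaling are not given in the sources used here, so that levels were not compared between genes.

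Members were found by symbol and level. The members, the substrate classes and the other lists were chosen with earlier results of these data known. Scores were transformed as log2(score + 1), and genes at 10 or more in at least 2 libraries of a fit entered limma (version 3.58.1, R 4.3.3; lmFit, then eBayes with the variance trend). Adjustment was by Benjamini-Hochberg over all genes of a fit. A call needs at least 2-fold and an adjusted *p* under 0.05. The added 1 makes changes of low scores look smaller than they are. KO and WT were compared within each day (2 against 4 libraries, for which an exact permutation test of 1 gene could not go below *p* = 0.0667). Day changes and the interaction were fitted over 12 libraries in 4 groups. Intervals are 95% intervals of limma.

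Named genes are up to 10 members called in each direction at day 24 and between the days, those called in the interaction or the 5 with the smallest *p* at day 12, and in each class the member with the highest mean and the one with the largest change at day 24. The members at the edge of the level rule, those with a sequence shown, and up to 5 called genes of the other list in each direction are also named. Some results are not reported here. Further members are named as relatives or for their values and were chosen after the values were seen. At day 12 the deviations of same-numbered libraries from their group means went together (r across genes 0.393, 0.376 and 0.556 for the 3 pairs of lines), so that the numbers, which come from the sample titles, were taken to pair that day's libraries. The day 12 fit reported above leaves this pairing out, and it entered only as the replicate block among the alternatives. At day 24 the values were 0.218, -0.094 and 0.328. Replicates of 1 line and day correlated at 0.902 to 0.953 across genes. Alternatives were other filters and pseudocounts, no trend, centring, a replicate block, the clones as separate groups, a fit over all libraries, an unadjusted *p*, and the removal of each library. A filter over all 12 libraries was added after the data were seen. Tests were tried on simulated data. Promoter windows are RefSeq's (GRCh38.p14). Python 3.11.15, pandas 2.3.3, numpy 2.4.6 and matplotlib 3.10.9 were used.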

Additional observations from a re-analysis of the deposited data

Results flagged for a closer look

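Of 103 sets of 4 KO values examined, 14 held a library whose distance from the nearest of the other 3 relative to the whole range of the set exceeded Dixon's 95% critical value. Chance marks about 1 set in 20 in this way, and 8 of the 14 had a range of at least 5 score units. At day 12, KO#10 replicate 1 scored 42 for *SLC29A1* (the other KO libraries 30 to 32) and 49 for *SLC30A9* (70 or 71), and KO#2 replicate 1 scored 42 for *SLC11A2* (33 or 34). At day 24, KO#10 replicate 1 scored 15 for *SLC16A3* (9 or 10) and 48 for *SLC44A2* (35 to 37). KO#2 replicate 2 scored 136 for *SLC25A36* (100 to 106) and 64 for *SLC30A9* (75 to 77), and KO#2 replicate 1 scored 33 for *SLC35A5* (25 or 26). The other 6 differed by 1 score unit, which is the step of rounding. These were *SLC22A23* at 8, *SLC66A2* at 9 and *SLC7A2* at 3 in KO#10 day 12 replicate 1, *SLC25A26* at 6 in KO#10 day 12 replicate 2, *SLC8A1* at 3 in KO#2 day 12 replicate 1, and *SLC7A2* at 2 in KO#10 day 24 replicate 1.

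The gap between KO and WT changed between the days in 2 members by the test of the interaction, *SLC16A3* (-1.63 ± 0.36 on the log2 scale, adjusted *p* = 0.0479, limma) and *SLC29A4* (1.07 ± 0.24, adjusted *p* = 0.04953). All 4 KO libraries of day 24 lay below both WT libraries for the first and above both for the second.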

How the results depend on the processing

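The number of members called between KO and WT at day 24 was 12 and became 19 when all 12 libraries were fitted together. It ranged from 0 to 24 with 1 library left out, and where this left 1 WT library, it was assumed to vary like the others. With a pseudocount of 5 the count was 8, of which 1 was higher and 7 lower. Shares of all genes called under the alternatives are not given here, so that the counts in this section are not read as particular to the members. At day 12 every alternative run gave 0. The 19 day changes in WT became 11 with a minimum of 20 and 11 with a pseudocount of 5, and 10 to 19 with 1 library left out. The 13 in KO became 8 with either of these, and 11 to 15 with 1 library left out. The 2 calls of the interaction became 0 with a minimum of 20, 1 with a pseudocount of 0.1, 4 with a pseudocount of 5, 4 without the trend, 0 with the clones as separate groups, 16 at an unadjusted *p*, and 0 to 12 with 1 library left out.

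With the replicate number as a block, 0 members were called at day 12, where the numbers pair the libraries, as without it. For the interaction the block gave 5 calls, and at day 24 it gave 10. The numbers share no checked pairing there, and same-numbered WT libraries of the 2 days had r = 0.164 across genes.

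For the genes named in a comparison, 516 of 574 values under other settings kept both direction and call, 43 lost the call and 15 gained it. With 1 library left out, 411 of 520 kept both, 104 lost the call and 5 gained it. In these alternatives 0 of them changed sign. The totals pool all comparisons and include genes that were not called to begin with. Fits in which a gene no longer reached the level are not counted. Of the members called between KO and WT at day 24, *SLC29A1* kept its call most often with 1 library left out, in 3 of 6 fits. Each of the others kept its call in 1 or 2 of 4 or 6. Since scores are rounded, genes below about 10 move in steps that are large against their level, and the depth behind them is unknown.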
